A study of Mus musculus with 4 samples.

Results

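The claudins and connexins are the genes whose array symbols name a numbered claudin (Cldn) or a numbered connexin of the alpha, beta, gamma or delta class (Gja, Gjb, Gjc, Gjd). Of the 31875 genes named by the array's non-control probes, 41 met this rule: 22 claudins and 19 connexins, read by 45 probes. Expression was measured in cells from mouse kidneys at embryonic stage E15.5, sorted by flow cytometry on the green fluorescence of a Six2GFP allele, which marks nephron progenitors. The comparison was between 2 arrays of Six2GFP-positive cells and 2 arrays of Six2GFP-negative cells. All 4 samples carried Six2GFP on a hybrid background of the 129 and C57BL/6 strains, so the groups differed by sort and not by genotype. The Six2GFP-negative cells were the remaining kidney cells, a mixture of types. In such bulk samples, fewer cells of a type and less RNA per cell cannot be told apart. The labels did not say how many embryos were pooled or whether the arrays came from separate litters, so p-values measure the spread between these arrays, which may be technical. A description field also mentioned tamoxifen for these samples, and the groups were taken from the sample titles.

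Claudins are membrane proteins whose extracellular loops meet those of a neighbouring cell to form the strands of the tight junction. Some seal the space between cells and others form pores for particular ions, so the set of claudins expressed along a renal tubule sets which ions pass between its cells. Connexins assemble into hexameric channels that dock between neighbouring cells as gap junctions and pass ions and small metabolites, and different connexins are typical of vessels, epithelia, nerve and lens. Nephron progenitors of the cap mesenchyme are mesenchymal cells that become polarized epithelium as they leave the progenitor state, next to a ureteric bud that is already epithelial.

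The sort was visible in its marker. Six2 lay at 5.58 and 5.74 on the positive arrays and at -0.17 and -0.15 on the negative arrays, in log2 units relative to the 75th percentile of each array's probes, the unit used throughout for levels. This was a 56.5-fold difference (limma adjusted p = 5.0e-04). Cited1, another marker of uninduced progenitors, was 27.9-fold higher in positive cells. The share of spots well above background ran from 72.5% to 79.1% by array, and arrays of the same population correlated at 0.995 and 0.994 across genes. A gene entered the test if, in 1 population or the other, the extraction software marked its probe as well above background on both arrays. This gave 24150 genes, and a gene was called if its Benjamini-Hochberg adjusted p over all of them was under 0.05. The median difference of all genes tested was 0.15.

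Most claudins and connexins were lower in the Six2GFP-positive cells, and only a few were higher. Of the 34 members tested, 27 were called, where 38.9% of all genes tested were. Of these, 24 were lower, where 18.3% of all genes were, and 3 were higher, where 20.7% of all genes were. Cldn9 and Gjc1 were among the higher ones. The shares of 18.3% lower and 20.7% higher also stand beside the counts of smaller groups and lists below. Among the 34, 5 were well above background on fewer than both positive arrays and could have entered the test only with a lower level there, so the counts are also given without them. The counts of smaller groups and lists below keep such genes. Of the 29 members well above background on all 4 arrays, 19 were lower and 3 higher, where 15.7% and 21.8% of the 22281 genes measured as fully were lower and higher. A call with at least a 2-fold lower level was made for 14 of the 29, against 10.0% of those genes. Their median difference was -0.97, against 0.18 for those genes. The 2 populations' arrays did not overlap for 26 of the 29, against 74.6% of those genes. The 17 claudins among the 29 held 11 lower, 10 of them by at least 2-fold, and 1 higher, with a median difference of -1.71. The 12 connexins held 8 lower, 4 of them by at least 2-fold, and 2 higher, with a median of -0.68. Several of these connexin calls, in both directions, were lost in other settings.

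**Figure D1:**
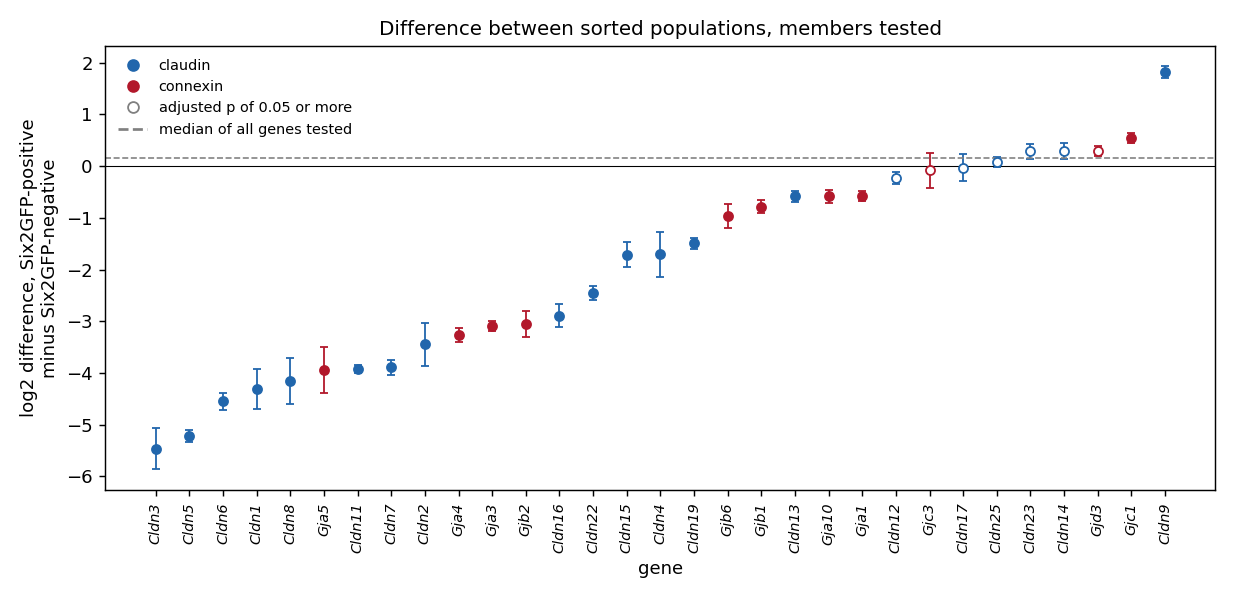
Log2 difference between Six2GFP-positive and Six2GFP-negative cells (y axis) for the members tested that are described here (x axis, ordered by difference), with bars of 1 standard error over 2 arrays a population. Filled points passed an adjusted p of 0.05, and the dashed line is the median of all genes tested, 0.15. The differences run from Cldn3 at -5.46 to Cldn9 at 1.82.

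Claudins known from the ureteric bud and collecting duct, Cldn3, Cldn4, Cldn7 and Cldn8, were lower in positive cells in 4 of 4 cases, with a median difference of -4.02. Cldn3, a sealing claudin, lay at -3.62 and -4.71 on the positive arrays and at 1.21 and 1.39 on the negative arrays. Both positive arrays were thus far below both negative arrays, and the difference was -5.46 ± 0.40 (SE), a 44.1-fold lower level (limma adjusted p = 0.00237). Only 0.174% of all genes tested had a difference below it. The Cldn3 probe lies on chromosome 5 at 135463283 to 135463342 in the mm9 build. Cldn7, found along the basolateral membrane of distal tubule cells, lay at -1.49 and -1.82 in positive cells and at 2.18 and 2.30 in negative cells. The groups did not overlap, and Cldn7 was 14.8-fold lower (-3.89 ± 0.15, adjusted p = 6.3e-04). Cldn8, which with Cldn4 forms the chloride path of the collecting duct, lay at -2.39 and -3.63 in positive and at 1.11 and 1.18 in negative cells. It was 17.8-fold lower (-4.16 ± 0.45, adjusted p = 0.00625), with the positive arrays much farther apart than the negative ones.

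Cldn4 had 2 probes. Its brighter probe lay at -3.56 and -4.76 in positive cells and at -2.45 and -2.44 in negative cells. The level was 3.27-fold lower (-1.71 ± 0.43, adjusted p = 0.0466), and this call was lost when a negative array was left out (adjusted p = 0.140 without the first and 0.146 without the second), with quantile normalisation (0.0578) and with no filter on dim probes (0.0830). Its other probe lay at -6.64 and -8.10 in positive cells, of which the first alone was well above background, and at -2.54 and -2.51 in negative cells. That probe had the same direction (-4.85 ± 0.52, adjusted p = 0.00586 over all probes), with a size that rests in part on a level not well above background.

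The positive arrays differed from each other in these same claudins. All 4 were higher on the first positive array than on the second, by a median of 1.15, while the median gap between the negative arrays was -0.09 and that of all genes between the positive arrays was 0.01. The gap was 1.09 for Cldn3, 1.20 for Cldn4, 0.33 for Cldn7 and 1.24 for Cldn8. Without one array at a time, the Cldn3 difference ran from -6.01 to -4.92 and that of Cldn8 from -4.78 to -3.53, and both kept their calls.

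Markers of other cell types were compared in the same way, and their lists did not all behave alike. Of all 24150 genes tested, 12797 were higher on the first positive array. Of 16 markers of ureteric bud and collecting duct, 14 were lower and 1 higher in positive cells, with a median difference of -3.53. Their summed linear signal was 37904 and 35899.8 in positive cells and 73928 and 87746 in negative cells. Etv4, called higher, and Hoxb7, not called, carried most of the sum in positive cells. The other 14 summed to 4981 and 3790.2 in positive and to 53399.8 and 65189.5 in negative cells. In the list, 14 of 16 were higher on the first positive array (median gap 0.36). Of 9 markers of the loop and distal tubule, 5 were lower, and 9 of 9 were higher on the first positive array (median gap 1.02). Their summed signal was 1673 and 678 in positive cells and 14810 and 15368 in negative cells. Slc12a1, the loop's salt cotransporter, lay at -3.01 on the first positive array and was not well above background on the second, and it lay at -3.84 and -4.16 on the negative arrays. All 11 macrophage and leukocyte markers were higher on the first array of both populations, by a median of 0.54 between positive and 0.23 between negative arrays. Of 8 erythroid markers, 2 were higher on the first positive array (median gap -0.27). The median gap between the positive arrays was 0.02 for the 12 endothelial and 0.09 for the 12 stromal markers. No marker in these lists was at 0. The part of such cells in the claudin differences was not tested.

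**Figure D2:**
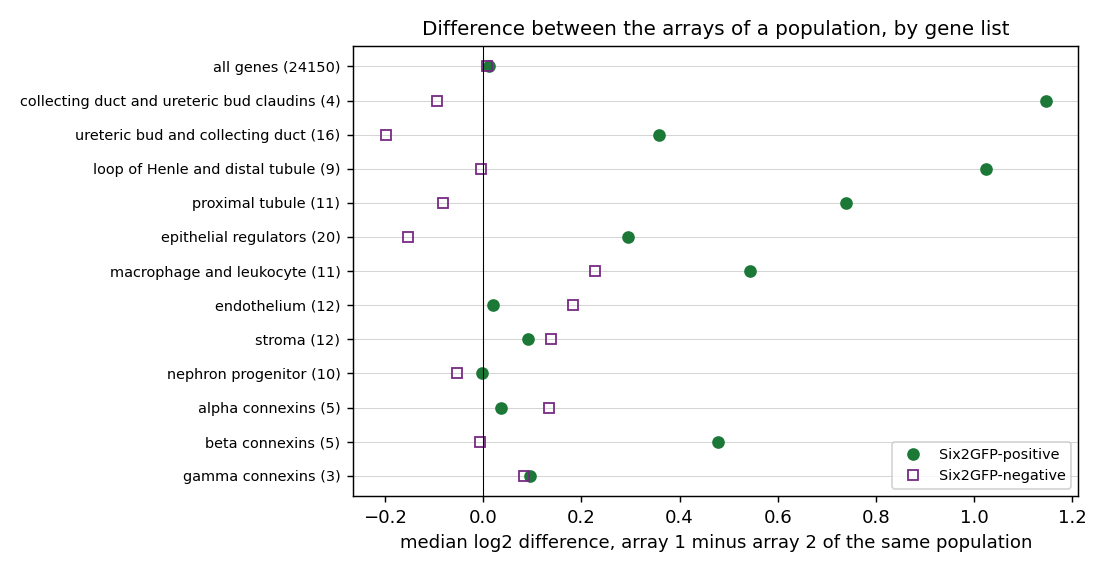
Median log2 difference between array 1 and array 2 of the same population (x axis) for gene lists (y axis, number of genes tested in brackets), with filled circles for Six2GFP-positive and open squares for Six2GFP-negative cells. On the positive side the collecting duct and ureteric bud claudins sit at 1.15 and the loop and distal tubule markers at 1.02, while all genes sit at 0.01.

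Cldn5, the main claudin of vascular endothelium, was among the most different members. It lay at -2.68 and -2.83 in positive cells and at 2.54 and 2.39 in negative cells. The level was 37.1-fold lower (-5.21 ± 0.11, adjusted p = 5.0e-04), and the arrays of each population were close together. The probe lies on chromosome 16 at 18778046 to 18778105 (mm9). Of 12 endothelial markers, 11 were also lower, with a median difference of -5.22. The exception was Kdr, at 2.61 and 2.52 in positive and 2.58 and 2.41 in negative cells. The summed signal of the list was 9283 and 8664 in positive and 31308 and 28514 in negative cells, with none at 0, and its part in the Cldn5 value was not tested. Kdr made up most of the sum in positive cells, at 8705 and 8067, and without it the sums were 578 and 598 in positive and 21735 and 20076 in negative cells.

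Claudins of the proximal tubule and early nephron held both directions. Cldn9, known from the inner ear and from the young tubule, was the one claudin called higher in positive cells. It lay at 1.05 and 0.85 in positive cells and at -0.93 and -0.81 in negative cells. The groups were clearly apart, and the level was 3.53-fold higher (1.82 ± 0.12, 95% interval 1.5 to 2.14, adjusted p = 0.00166). Cldn9 kept its call under 14 of 14 other settings, with differences from 1.70 to 2.07.

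Cldn6, a claudin of embryonic epithelia, went the other way. It lay at -4.04 and -4.27 in positive cells and at 0.23 and 0.55 in negative cells, a 23.4-fold lower level (-4.55 ± 0.16, adjusted p = 5.8e-04). Cldn6 and Cldn9 are close neighbours. Their probes lie on chromosome 17 (mm9), that of Cldn6 at 23819027 to 23819086 on the plus strand and that of Cldn9 at 23820168 to 23820227 on the minus strand, 1082 bases apart. The probes share no run longer than 5 bases. Of 12 early nephron markers, 11 were lower and 1 was higher in positive cells, with a median difference of -4.10. Their summed signals were 15209 and 15188 in positive and 88596 and 102762 in negative cells. Without the 2 genes brightest in positive cells, the sums were 4283 and 4256 in positive and 46116 and 53771 in negative cells. The part of these markers in the Cldn6 or Cldn9 value was not tested.

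Cldn2, which forms the cation and water pore of the proximal tubule, lay at -4.61 and -5.72 in positive and at -1.85 and -1.59 in negative cells. It was 10.9-fold lower (-3.45 ± 0.41, adjusted p = 0.00803), with an adjusted p of 0.0539 when the second negative array was left out. Its other probe was well above background on neither positive array and gave a level at least 3.76-fold lower. Such a bound compares the mean of the brighter group with the lowest signal that counted as detected on the arrays of the other, or with the probe's own signal where that is higher. Of 11 proximal tubule markers, 9 were lower and 10 were higher on the first positive array than on the second. Their summed signal was 3930 and 2817 in positive and 29309 and 32356 in negative cells, and their part in the Cldn2 value, which was higher by 1.11 on the first positive array, was not tested.

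Cldn1, a barrier claudin of epidermis that is also found in the parietal layer of Bowman's capsule, lay at -6.09 and -7.10 in positive and at -2.13 and -2.45 in negative cells. The first of these positive values alone was well above background, and the difference was -4.31 ± 0.38 (adjusted p = 0.00372). With normexp background correction it was -2.15. Cldn12, a claudin of many epithelia, lay at 1.0 and 1.14 in positive and at 1.19 and 1.41 in negative cells. It was not called (-0.23, 95% interval -0.57 to 0.11, adjusted p = 0.211), although its groups did not overlap. It was called lower with normexp background correction and quantile normalisation together (adjusted p = 0.0421).

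A claudin outside the rule, Cldn10, has a probe that the files name Cldn10a. This probe lay at -3.51 and -4.21 in positive and at -1.87 and -1.71 in negative cells, a 4.20-fold lower level (-2.07 ± 0.27, adjusted p = 0.00943 over all probes). Cldn10 forms ion pores in both the proximal tubule and the loop.

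Of the loop of Henle claudins, 2 of 3 were lower, of which Cldn16 could have entered the test only with a lower level in positive cells. Cldn19, mutated with Cldn16 in inherited magnesium wasting, lay at -4.97 and -5.17 in positive and at -3.54 and -3.61 in negative cells. It was 2.82-fold lower (-1.49 ± 0.11, adjusted p = 0.00246). Cldn16 was not well above background on either positive array, so its level there is a bound. It lay at -5.48 and -5.23 in negative cells and was at least 3.23-fold lower in positive cells. The limma adjusted p of 0.00262 belongs to the unbounded difference of -2.90 and not to the bound. That difference uses positive signals that were not well above background. With normexp background correction, which adds an offset, the Cldn16 difference was only -0.42. Cldn14, which modulates the Cldn16 and Cldn19 pore, lay at -3.96 and -3.97 in positive and at -4.07 and -4.43 in negative cells and was not called (0.29, 95% interval -0.14 to 0.71, adjusted p = 0.211). It was called higher with quantile normalisation (adjusted p = 0.0239), with centring on the array median (0.0245) and with normexp and quantile normalisation together (0.0295).

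Other claudins, known from tissues outside the kidney or of no fixed site, were lower in 4 of the 7 tested. Of these 4, Cldn22 could have entered the test only with a lower level in positive cells. Cldn11, the claudin of myelin and of the Sertoli cell barrier, lay at -2.22 and -2.20 in positive and at 1.73 and 1.69 in negative cells. It was 15.2-fold lower (-3.92 ± 0.08, adjusted p = 5.0e-04), with the arrays of each population nearly equal. Of the neural and glial markers tested, 4 of 8 were lower and 2 higher, with a median difference of -0.32 and summed signals of 5714 and 5422 in positive and 3084 and 3086 in negative cells. Elavl4 carried the sum in positive cells, and without it the sums were 953 and 929 in positive and 1768 and 1800 in negative cells. Of 12 stromal markers, 11 were lower, with a median of -4.45 and summed signals of 15281 and 12052 in positive and 186586 and 172823 in negative cells. Without the 2 stromal genes brightest in positive cells, the sums were 5778 and 5550 in positive and 108751 and 106139 in negative cells. The part of either list in the Cldn11 value was not tested.

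Cldn15, a cation pore of the gut, lay at -4.51 and -4.50 in positive and at -3.12 and -2.47 in negative cells. It was 3.27-fold lower (-1.71 ± 0.25, adjusted p = 0.0127), and its adjusted p was 0.0536 and 0.0554 without the first and second positive array. In positive cells Cldn22 was not well above background. It lay at -5.80 and -5.72 in negative cells and was at least 2.44-fold lower in positive cells. The limma adjusted p of 0.00119 belongs to the unbounded difference of -2.45 and not to the bound. With normexp the Cldn22 difference was only -0.25. Cldn13 lay at -6.66 and -6.53 in positive and at -5.96 and -6.06 in negative cells. This gap of -0.59 ± 0.10 (adjusted p = 0.0192) was not called in any fit that left out an array, where it ran from -0.65 to -0.52. Nor was it called with quantile normalisation (adjusted p = 0.0937), with centring on the array median (0.0704) or with normexp (-0.06, 0.515).

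Cldn17, Cldn23 and Cldn25 were not called. Cldn17 ranged from -5.53 to -5.33 in positive and from -5.75 to -5.06 in negative cells, and the interval of its difference was -0.77 to 0.71. The intervals were -0.13 to 0.70 for Cldn23 and -0.19 to 0.35 for Cldn25. Both were called higher with quantile normalisation (adjusted p = 0.0294 and 0.0359) and with normexp and quantile normalisation together (0.0452 and 0.0396), and Cldn23 also with centring on the array median (0.0277). Cldn18, known from stomach and lung, and Cldn20 were not well above background on both arrays of either population and were not tested.

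**Figure D3:**
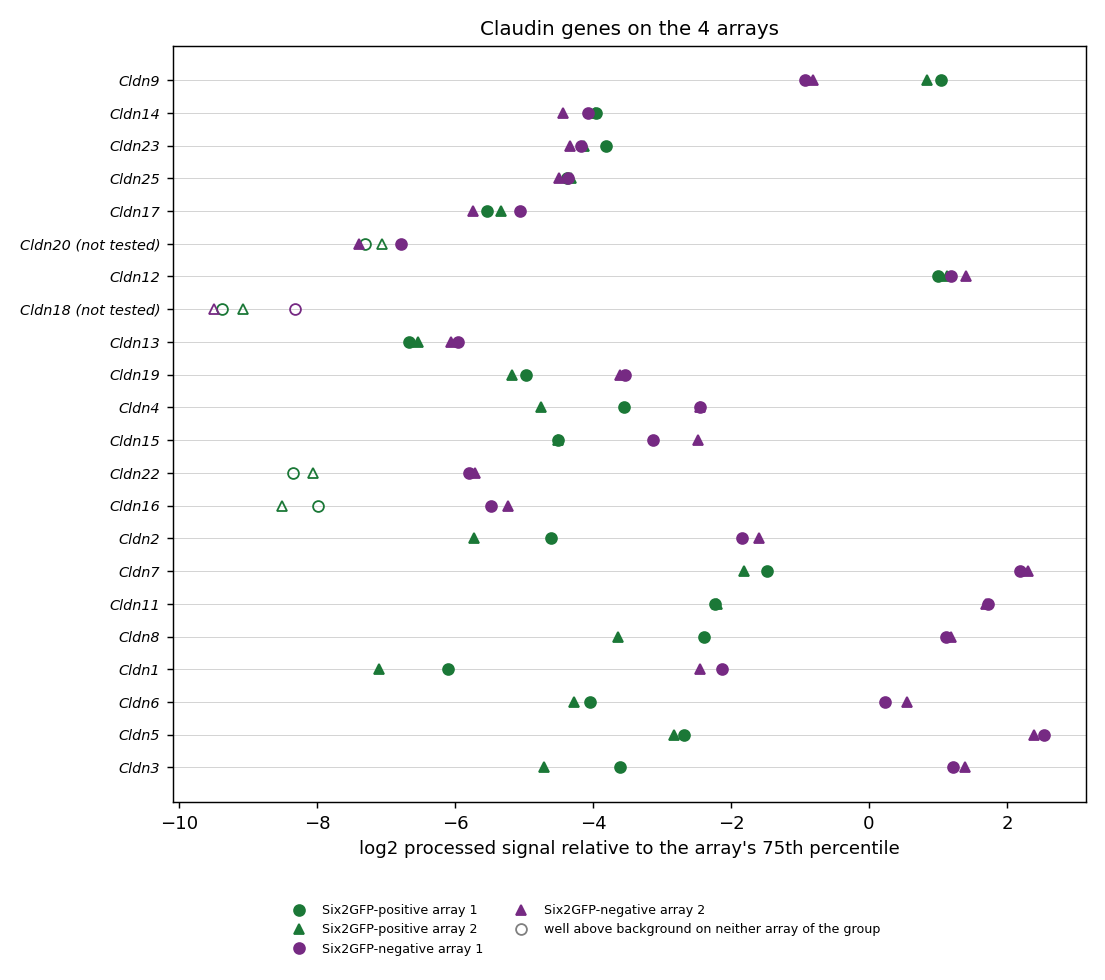
Levels of the 22 claudins on the 4 arrays (x axis, log2 processed signal minus the 75th percentile of the array), with genes ordered on the y axis by their difference. Green points are Six2GFP-positive and purple points Six2GFP-negative arrays, circles are the first and triangles the second array of a population, and open symbols were well above background on neither array. For Cldn9 the green points lie to the right of the purple ones, at 1.05 and 0.85 against -0.93 and -0.81.

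The alpha connexins tested were lower in positive cells in 5 of 5 cases, where 18.3% of all genes tested were. Their median difference was -3.09, and the calls of Gja1 and Gja10 were lost in several other settings. Gja4 and Gja5 are the connexins of arterial endothelium. Gja5 lay at -6.20 and -5.01 in positive and at -1.82 and -1.52 in negative cells, a 15.3-fold lower level (-3.94 ± 0.44, adjusted p = 0.00678). Here the second positive array was the higher one, by 1.18, the opposite of Cldn3 and Cldn8. The difference ran from -4.53 to -3.35 when an array was left out. A further Gja5 probe was well above background on 1 array of each population and was not tested. Gja4 lay at -4.21 and -4.01 in positive and at -0.71 and -0.97 in negative cells, a 9.63-fold lower level (-3.27 ± 0.14, adjusted p = 7.9e-04). The 11 endothelial markers lower in positive cells, given beside Cldn5, moved in the same direction, and their part was not tested here either.

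Gja3, best known from the lens, lay at -5.03 and -5.07 in positive and at -1.89 and -2.02 in negative cells. It was 8.52-fold lower (-3.09 ± 0.09, adjusted p = 5.2e-04), with each population's arrays close together. Gja1, the most widespread connexin, differed far less. It lay at -0.96 and -1.0 in positive and at -0.34 and -0.46 in negative cells, a 1.49-fold lower level (-0.58 ± 0.09, adjusted p = 0.0163). Its adjusted p was 0.0781, 0.0901 and 0.0619 without the first positive, second positive and first negative array, and 0.0609 with centring on the array median. Gja10, a connexin of retinal neurons, was lower by a similar amount (-0.59 ± 0.12, adjusted p = 0.0311) and was not called in any fit that left out an array (0.0592 to 0.132). Gja10 was also not called with quantile normalisation (adjusted p = 0.0606), with centring on the array median (0.0695) or with no filter on dim probes. With normexp it was not called either, alone (0.159) or with quantile normalisation (0.192). Gja6 was not tested.

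The beta connexins Gjb1, Gjb2 and Gjb6 were lower too. Gjb2, the connexin most often mutated in inherited deafness, lay at -5.39 and -5.87 in positive and at -2.36 and -2.80 in negative cells. It was 8.28-fold lower (-3.05 ± 0.24, adjusted p = 0.00291). The positive arrays were below both negative arrays by a wide margin.

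Gjb1, the connexin of hepatocytes and Schwann cells, lay at -0.58 and -0.83 in positive and at 0.14 and 0.01 in negative cells, 1.72-fold lower (-0.78 ± 0.13, adjusted p = 0.0179). Gjb6, which joins Gjb2 in cochlear gap junctions, lay at -5.38 and -5.98 in positive and at -4.72 and -4.71 in negative cells, 1.96-fold lower (-0.97 ± 0.23, adjusted p = 0.0392). Both differences were smaller than that of Gjb2. With quantile normalisation Gjb6 was not called, alone (adjusted p = 0.0750) or with normexp (0.0737), nor was it with no filter on dim probes. Gjb1 was not called without the second positive, first negative or second negative array (0.0707, 0.0737 and 0.0626), nor was Gjb6 (0.0558, 0.124 and 0.129). Gjb5 was well above background on no array and was not tested.

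Among the gamma connexins, Gjc1 was higher in positive cells. Gjc1, a connexin of the embryonic heart and of vascular smooth muscle, lay at 1.89 and 1.92 in positive and at 1.28 and 1.44 in negative cells. It was 1.46-fold higher (0.54 ± 0.10, adjusted p = 0.0217). The groups did not overlap, and the gap was small beside those of Gja4 and Gja5. The gene was not called in any fit that left out an array, with adjusted p from 0.0507 to 0.105.

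Gjc3, a glial connexin, overlapped between populations (-0.08, 95% interval -1.04 to 0.88). Gjd3 was the one delta connexin tested and was not called (0.30, 95% interval 0.03 to 0.56, adjusted p = 0.0763). It was called higher with the array median (0.0181), with quantile normalisation (0.0263) and with normexp, alone (0.0379) or with quantile normalisation (0.0394). Gjd2, the main neuronal connexin, and Gjd4 were well above background on no array and were not tested.

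**Figure D4:**
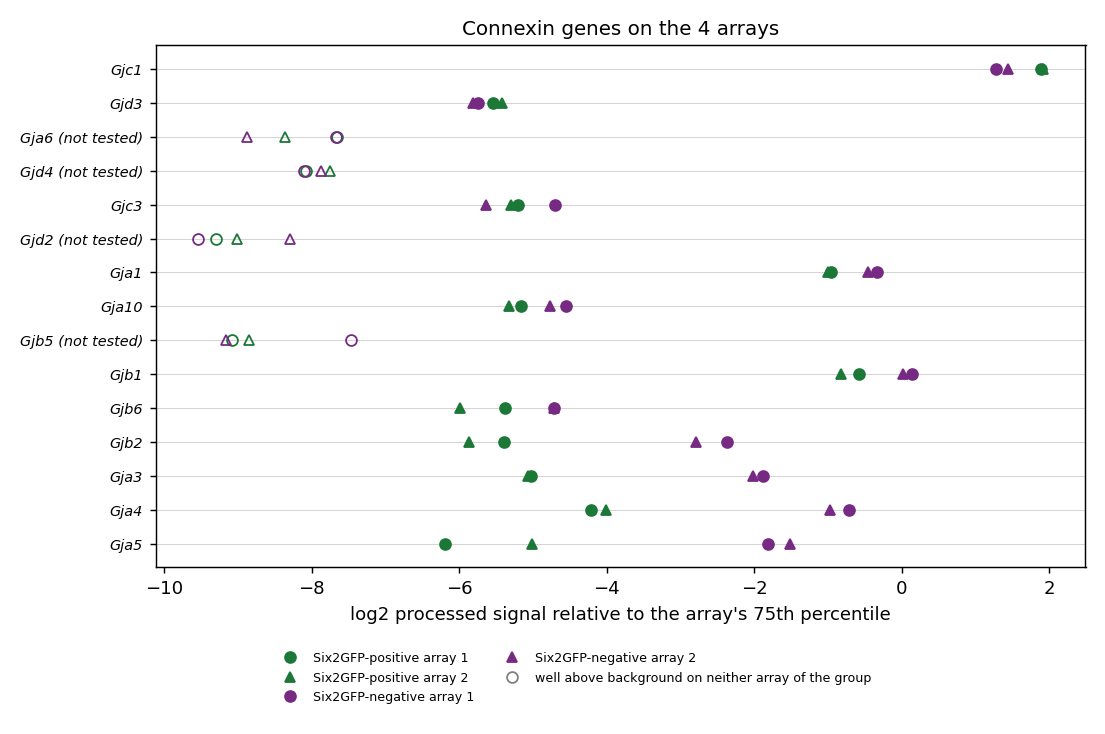
Levels of the connexins described here on the 4 arrays (x axis, log2 processed signal minus the 75th percentile of the array), with genes ordered on the y axis by their difference and symbols for the 4 arrays as given in the legend. Gja5, Gja4 and Gja3 show wide gaps, with positive arrays at -6.20 to -4.01 and negative arrays at -2.02 to -0.71, while Gjc1 lies slightly to the right in positive cells.

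Several members are neighbours in the genome. Within 100 kb, Cldn3, Cldn4 and Cldn13 lie together on chromosome 5 and were all called lower, by amounts from -5.46 to -0.59. The calls of Cldn4 and Cldn13 were lost in several other settings. The connexins Gja3, Gjb2 and Gjb6 lie together on chromosome 14 and were all called lower, with the call of Gjb6 lost in several other settings. Cldn8 and Cldn17 lie 54893 bases apart on chromosome 16, where Cldn8 was 17.8-fold lower and Cldn17 was not called. Cldn6 and Cldn9 were the one neighbouring pair called in opposite directions.

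Promoters of 4 claudins are printed because they belong to members with large differences or with a neighbour that differed less, and because each holds some of the motifs that were counted. They run from 250 bases before to 50 bases after the RefSeq start in GRCm38.p6, 5′ to 3′ on the gene's strand. They lie at chr5:134985964-134986263 (Cldn3, plus strand), chr5:134946885-134947184 (Cldn4, minus), chr16:18776597-18776896 (Cldn5, plus) and chr17:23679115-23679414 (Cldn6, plus). Capitals mark the GC box GGGCGG, the E-box CAGGTG that Snail and Zeb repressors bind, and the Grainyhead motif AACCNGTT, on either strand.
Cldn3: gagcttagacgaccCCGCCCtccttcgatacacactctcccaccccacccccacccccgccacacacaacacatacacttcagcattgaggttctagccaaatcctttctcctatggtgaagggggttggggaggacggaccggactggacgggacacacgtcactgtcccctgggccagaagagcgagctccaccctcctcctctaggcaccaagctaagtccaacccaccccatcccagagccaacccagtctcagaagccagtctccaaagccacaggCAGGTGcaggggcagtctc
Cldn4: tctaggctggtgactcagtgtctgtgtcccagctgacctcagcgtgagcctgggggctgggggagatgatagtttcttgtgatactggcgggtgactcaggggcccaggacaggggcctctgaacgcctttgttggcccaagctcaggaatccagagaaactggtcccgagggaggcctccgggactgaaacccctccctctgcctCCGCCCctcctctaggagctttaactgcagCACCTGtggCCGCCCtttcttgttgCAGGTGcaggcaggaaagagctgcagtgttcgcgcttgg
Cldn5: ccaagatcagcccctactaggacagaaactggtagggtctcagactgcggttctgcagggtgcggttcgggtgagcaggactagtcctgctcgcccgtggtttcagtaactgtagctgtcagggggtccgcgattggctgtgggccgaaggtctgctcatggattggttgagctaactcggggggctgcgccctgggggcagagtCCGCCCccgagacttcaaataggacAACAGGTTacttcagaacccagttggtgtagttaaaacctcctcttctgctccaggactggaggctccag
Cldn6: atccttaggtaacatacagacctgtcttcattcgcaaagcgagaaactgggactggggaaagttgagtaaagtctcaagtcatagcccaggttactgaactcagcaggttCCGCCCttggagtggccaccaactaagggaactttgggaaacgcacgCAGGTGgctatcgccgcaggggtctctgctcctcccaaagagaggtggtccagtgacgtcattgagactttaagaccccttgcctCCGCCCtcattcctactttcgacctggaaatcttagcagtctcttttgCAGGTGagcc
Cldn3 holds 1 GC box and 1 E-box, Cldn4 and Cldn6 hold 2 of each, and Cldn5 holds 1 GC box and 1 Grainyhead motif. No letters were shared between different motifs.

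Across the set, 29 members had a promoter in the RefSeq table. A GC box was present in 55.2% of them, against 38.2% of 27025 genes with a promoter of the same length. The E-box was present in 34.5% of them, against 22.6% of those genes, and the Grainyhead motif in 6.90%, against 2.35%. A gene with several promoters held a motif if any of them did. Counted by promoter, 45% of 40 member promoters held a GC box and 25% an E-box, against 35.7% and 20.2% of 32851. Of the 20 members lower in positive cells with a promoter, 14 held a GC box and 8 held an E-box. Of the other 9, which were not called or were not tested for lack of signal, 2 held a GC box and 2 held an E-box. These are counts of letters in a short window, without a test.

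The proteins that work with claudins at the tight junction were split. Of 28 tight junction partners, 14 were lower, 3 were higher and 11 were not called, with a median difference of -0.41. The largest differences were in Crb3, the Crumbs protein of the apical domain (-4.88 ± 0.24, adjusted p = 0.00101), and in occludin, Ocln (-4.34 ± 0.24, adjusted p = 0.00124). Each was well above background on 1 of the positive arrays, so both could have entered the test only with a lower level there. A second Crb3 probe gave -2.98, the value also found when probes had to be well above background on all 4 arrays. With normexp background correction Crb3 was at -2.70 and Ocln at -2.11. Epcam, which binds Cldn7, lay at -2.75 and -2.96 in positive and at 0.43 and 0.42 in negative cells, and fell by 3.28 on the log2 scale (± 0.11, adjusted p = 5.6e-04).

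Tjp1 and Tjp3 are scaffold proteins under the strands. Tjp1 lay at 1.66 and 1.82 in positive and at 2.09 and 2.09 in negative cells and was not called (-0.35 ± 0.10, adjusted p = 0.0600). Tjp3 was lower (-1.61 ± 0.10, adjusted p = 0.00159). The higher partners were Ybx3, a Y-box protein that binds Tjp1 (0.78 ± 0.08, adjusted p = 0.00561), and the polarity proteins Pard6a (0.44 ± 0.10, adjusted p = 0.0383) and Pard3 (0.42 ± 0.08, adjusted p = 0.0261). Pard6a and Pard3 were not called in any fit that left out an array (0.0943 to 0.160 and 0.0822 to 0.128).

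Of 10 gap junction relatives listed, 6 were tested. The actin binding protein Dbn1 was higher (0.35 ± 0.08, adjusted p = 0.0394), a call that no fit leaving out an array made (0.108 to 0.180). The pannexin Panx1 was not called (0.04 ± 0.12, adjusted p = 0.810), nor were the other 4, one of them Tjp1.

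Regulators and companions of epithelial identity were lower in 16 of 20 cases and not called in 4, with a median difference of -3.64. The largest differences were in the transcription factors Ehf (-5.38 ± 0.43, adjusted p = 0.00294), Gata3 (-5.15 ± 0.38, adjusted p = 0.00239) and Grhl2 (-4.76 ± 0.14, adjusted p = 5.2e-04). Further probes gave -3.49 for Ehf and -3.65 for Grhl2. Grhl2, a Grainyhead protein, lay at -4.98 and -5.29 in positive and at -0.42 and -0.34 in negative cells. Cdh1, the cadherin of epithelial adherens junctions, was lower by a similar amount (-4.52 ± 0.26, adjusted p = 0.00131). Gata3 and Elf5 are also in the ureteric bud list given beside Cldn3, and Hnf4a is in the proximal tubule list.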

How the data were processed

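Each array was a 1-colour Agilent mouse expression array (design 026655), and all 4 lay on 1 slide. Per the file headers, the authors extracted spot intensity with Agilent Feature Extraction 10.7.3.1 (protocol GE1_107_Sep09), and coordinates are mm9. The deposited processed intensity is background-subtracted by that software, which leaves dim probes uncertain. Control spots and outlier spots were left out, spots of a probe were averaged, and log2 intensity was taken relative to the array's 75th percentile. Symbols came from RefSeq accessions for 26034 probes, current symbols for 3190 and the files for 10171. For each gene the probe with the highest mean log2 signal was fitted with limma 3.58.1 in R 4.3.3 (lmFit, eBayes, two-sided). This covered 24150 genes, with Benjamini-Hochberg adjustment over all of them. The procedure was tested on simulated data.

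Members are named, called ones with values and the others by ranges or by name, except a few that are counted and not reported singly here. For partner lists, up to 3 genes per direction with the largest difference among those called are named, and Tjp1, Tjp3, Panx1, Cdh1, Kdr, Slc12a1, Etv4, Hoxb7, Elavl4 and Cldn10 were named with their values already known. The members and lists were chosen with earlier results of these data known. Alternatives were other scalings, normexp background correction (offset 50), no filter, the mean of a gene's probes, a replicate block and leaving out each array. With 2 arrays a population, their number limits the precision. RefSeq promoters were matched by symbol.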

Additional observations from a re-analysis of the deposited data

How the results depend on the processing

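With quantile normalisation 7 members were called higher, with centring on the array median 6 and with normexp and quantile normalisation together 7, against 3. Centring on the array median moved all genes by 0.25 on the log2 scale, gave 10810 genes higher and 7 partners higher, and moved the share of calls that were higher from 53.1% to 74.2%. That share was 61.6% with normexp, 58.5% with quantile normalisation and 40.7% without the filter on dim probes, where 2618 genes and 1 partner were higher. Leaving out each array in turn gave 1320 to 2163 genes higher and 3146 to 3552 lower, 1 member higher in each (Cldn9) and 17 to 20 lower, 1 partner higher and 23 to 27 lower. The labels did not say whether samples with the same number were paired. Across the 24150 genes tested, the gap between the positive arrays and that between the negative arrays correlated at 0.22. With 2 arrays a population this does not settle whether they were paired. With the replicate block 4244 genes were higher and 4371 lower, and 3 members were higher and 23 lower, the lost call being Cldn4 (adjusted p = 0.0507). Of the 27 members called, 16 kept their call in every setting that gave them a value. None of the members called in the main setting changed direction in another setting. Among members not called, Cldn12, Cldn17 and Gjc3 changed sign in some settings. Normexp, which adds an offset of 50 before logarithms are taken, gave a median of -0.63 for the members tested. The main setting gave -1.71, or -1.39 with bounds in place of levels not well above background. A fit without an array assumes that the lone array left in its population varies like the others. The causes were not tested.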
